A study of Mus musculus with 8 samples.

Results

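The NODAL ligand, its receptors and its feedback inhibitors were followed in mouse embryonic stem cells in which Dnmt3l was knocked down. The genes were chosen by name from the pathway, with earlier results of these data known. They were the ligand Nodal, co-receptor Tdgf1, receptors Acvr1b and Acvr2b, transducers Smad2 and Smad3, and feedback genes Lefty1, Lefty2, Smad7 and Skil. These are 10 of the 19057 genes named on the array, and they were read by 16 of its 45281 probes. Of these, 9 were detected and tested, and Smad7 was not.

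NODAL is a secreted ligand of the TGF-beta family that keeps the epiblast in a pluripotent state and later patterns mesendoderm. It signals through ACVR1B and ACVR2B with TDGF1 as co-receptor, and the receptors phosphorylate SMAD2 and SMAD3, which enter the nucleus with SMAD4 and act with partners such as FOXH1. Among the genes that the pathway switches on are Nodal itself and the inhibitors LEFTY1 and LEFTY2, which block the ligand and its co-receptor, so the circuit restrains itself. SMAD7 blocks the receptors, and SKIL represses SMAD target genes in the nucleus.

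The cells were of the E14 line, an embryonic stem cell line grown with serum and the cytokine LIF, which keeps it undifferentiated. They received 1 of 4 short hairpins: shDnmt3L1, shDnmt3L2 or shDnmt3L3, each directed against Dnmt3l, or shGFP, the control directed against GFP. After 3 days of puromycin selection their RNA was hybridised to Illumina expression arrays, 2 per group and 8 in all. DNMT3L is a catalytically inactive partner of the de novo DNA methyltransferases, and the series title puts the question as how methylation that depends on it bears on differentiation toward germ cells. Each group was run in duplicate, with no word on whether separate cultures were used, so the p-values below rest on a spread between duplicates that may be technical. All groups come from 1 cell line, and the labels do not say whether a group was a pool of transfected cells or a clone.

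The median raw intensity per array lay between 96.1 and 104, with 18111 to 19241 probes (40.0% to 42.5%) detected above the negative controls. Across the 10930 genes tested, duplicates correlated at 0.996 to 0.997, arrays of different Dnmt3l hairpins at 0.977 to 0.993, and Dnmt3l hairpin arrays with shGFP arrays at 0.968 to 0.982. The identity of the cells was checked with marker lists: 10 of 10 embryonic stem cell markers were detected on all 8 arrays. The endoderm markers Gata4, Gata6, Sox17 and Afp, the mesoderm markers Mixl1 and Mesp1, and the fibroblast markers Col1a1, Col1a2 and Col3a1 were detected on none. Other markers of these lineages were detected on all 8, among them the endoderm markers Sox7, Dab2 and Amn, the neuroectoderm marker Nes, and Thy1 and Twist1 of the fibroblast list.

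The hairpins' own target was checked before the pathway. Dnmt3l had normalized log2 intensities of 10.51 and 10.45 with shDnmt3L1, 10.73 and 10.84 with shDnmt3L2, 9.34 and 9.19 with shDnmt3L3, and 11.87 and 11.97 with shGFP. On the linear scale of these normalized values, shDnmt3L1 left 36.8%, shDnmt3L2 45.4% and shDnmt3L3 15.8% of the shGFP level. Each Dnmt3l hairpin array was below both shGFP arrays, and shDnmt3L3 left the least Dnmt3l signal.

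The DNA methyltransferases that DNMT3L partners act on CpG dinucleotides, the main sites of DNA methylation in mammals. The promoters of 3 of the 4 genes that rose with every Dnmt3l hairpin, without Lefty2, and that of Nodal are shown with each CpG in capitals. They are RefSeq sequences of the mouse assembly GRCm38.p6, 300 bases around each gene's start, read along the gene's strand. Promoters of 5 of the 10 genes were examined, and those of Smad2, Smad7, Lefty1, Lefty2 and Skil were not. Methylation was not measured on these arrays, and whether the number of CpG goes with the changes was not tested.
Acvr2b: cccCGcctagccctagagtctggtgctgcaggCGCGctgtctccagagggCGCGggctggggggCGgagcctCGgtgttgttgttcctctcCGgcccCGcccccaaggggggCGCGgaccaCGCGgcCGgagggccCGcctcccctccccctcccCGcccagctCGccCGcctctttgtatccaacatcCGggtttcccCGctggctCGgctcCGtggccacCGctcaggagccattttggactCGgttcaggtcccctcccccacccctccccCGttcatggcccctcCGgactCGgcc
Smad3: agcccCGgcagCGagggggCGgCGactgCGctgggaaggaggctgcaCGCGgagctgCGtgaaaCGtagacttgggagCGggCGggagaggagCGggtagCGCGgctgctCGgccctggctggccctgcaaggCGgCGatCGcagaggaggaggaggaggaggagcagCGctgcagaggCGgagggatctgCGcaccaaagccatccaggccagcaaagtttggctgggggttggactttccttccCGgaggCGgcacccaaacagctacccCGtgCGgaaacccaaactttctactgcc
Acvr1b: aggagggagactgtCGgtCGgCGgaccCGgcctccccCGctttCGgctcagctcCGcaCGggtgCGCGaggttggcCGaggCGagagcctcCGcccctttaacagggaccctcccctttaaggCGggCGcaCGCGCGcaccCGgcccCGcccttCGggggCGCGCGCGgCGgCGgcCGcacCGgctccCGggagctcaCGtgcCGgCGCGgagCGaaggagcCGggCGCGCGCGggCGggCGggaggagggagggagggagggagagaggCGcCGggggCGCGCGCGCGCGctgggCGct
Nodal: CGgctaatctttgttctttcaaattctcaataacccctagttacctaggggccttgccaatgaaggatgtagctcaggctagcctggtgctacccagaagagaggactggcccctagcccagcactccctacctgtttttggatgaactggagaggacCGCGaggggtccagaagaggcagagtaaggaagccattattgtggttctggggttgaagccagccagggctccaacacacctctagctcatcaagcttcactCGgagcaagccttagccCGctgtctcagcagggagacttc

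The Acvr2b promoter lies at chr9:119401928-119402227 on the plus strand and holds 27 CpG, more than 84.5% of the 32851 mouse promoters of the same length. The Smad3 promoter, at chr9:63757945-63758244 on the minus strand, holds 25, more than 81.6% of promoters. The Acvr1b promoter, at chr15:101173822-101174121 on the plus strand, holds 51, more than 99.3% of promoters. The Nodal promoter, at chr10:61417722-61418021 on the plus strand, holds 5, against a median of 7 over all promoters. The promoter of Tdgf1, at chr9:110946109-110946408 on the minus strand, holds 7. The SMAD motif CAGAC was searched on both strands and was found 1 time each in the Acvr2b and Tdgf1 windows, and it occurs in 49.6% of all promoters. The GC-rich SMAD motif GGCGC was found 3 times in the Acvr2b window and 8 times in the Acvr1b window, where some copies overlap, and it occurs in 36.9% of all promoters. The FOXH1 motif AATNCACA, present in 3.6% of promoters, was in none of the 5 windows. These matches describe letters and are not binding sites.

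The ligand and its LEFTY inhibitors differed in their changes from shGFP, although each was lower with shDnmt3L3 than with the other Dnmt3l hairpins. Lefty1 and Lefty2 were 2.19-fold to 2.75-fold higher with shDnmt3L1 and shDnmt3L2 than with shGFP, while Nodal did not pass the test with either hairpin. With shDnmt3L3, Nodal was 1.51-fold lower than with shGFP, Lefty1 did not pass the test and Lefty2 was 1.18-fold higher. The receptors Acvr1b and Acvr2b and the transducer Smad3 were higher with each of the 3 hairpins. In RNA from a whole culture, more cells expressing a gene and more RNA per cell cannot be told apart.

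Of the 9 tested genes, 7 were called with shDnmt3L1 (6 higher and 1 lower), where 47.9% of all genes tested were called (25.2% higher and 22.6% lower). With shDnmt3L2, 5 were called, all higher, where 39.2% of all genes were (20.8% higher and 18.3% lower). With shDnmt3L3, 7 were called (4 higher and 3 lower), where 52.2% of all genes were (27.1% higher and 25.1% lower). Called means an adjusted p under 0.05 in a limma model fitted across all genes with Benjamini-Hochberg adjustment, and every adjusted p below comes from that fit unless a fit over probes is named. The median log2 difference of the 9 genes was 0.46 with shDnmt3L1, 0.35 with shDnmt3L2 and 0.14 with shDnmt3L3, beside 0.0086, 0.0047 and 0.0021 over all genes. Acvr1b, Acvr2b, Smad3 and Lefty2 were called higher with all 3 hairpins, 4 of 9 genes against 11.9% of all genes, and for these 4 all 6 Dnmt3l hairpin arrays lay above both shGFP arrays, as for 21.4% of all genes. Lefty1 was called higher with shDnmt3L1 and shDnmt3L2 and not called with shDnmt3L3, a pattern that 4.23% of all genes had. All these comparisons share the 2 shGFP arrays. Since the genes were chosen with earlier results of these data known, a count above the share of all genes is no independent evidence.

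**Figure D1:**
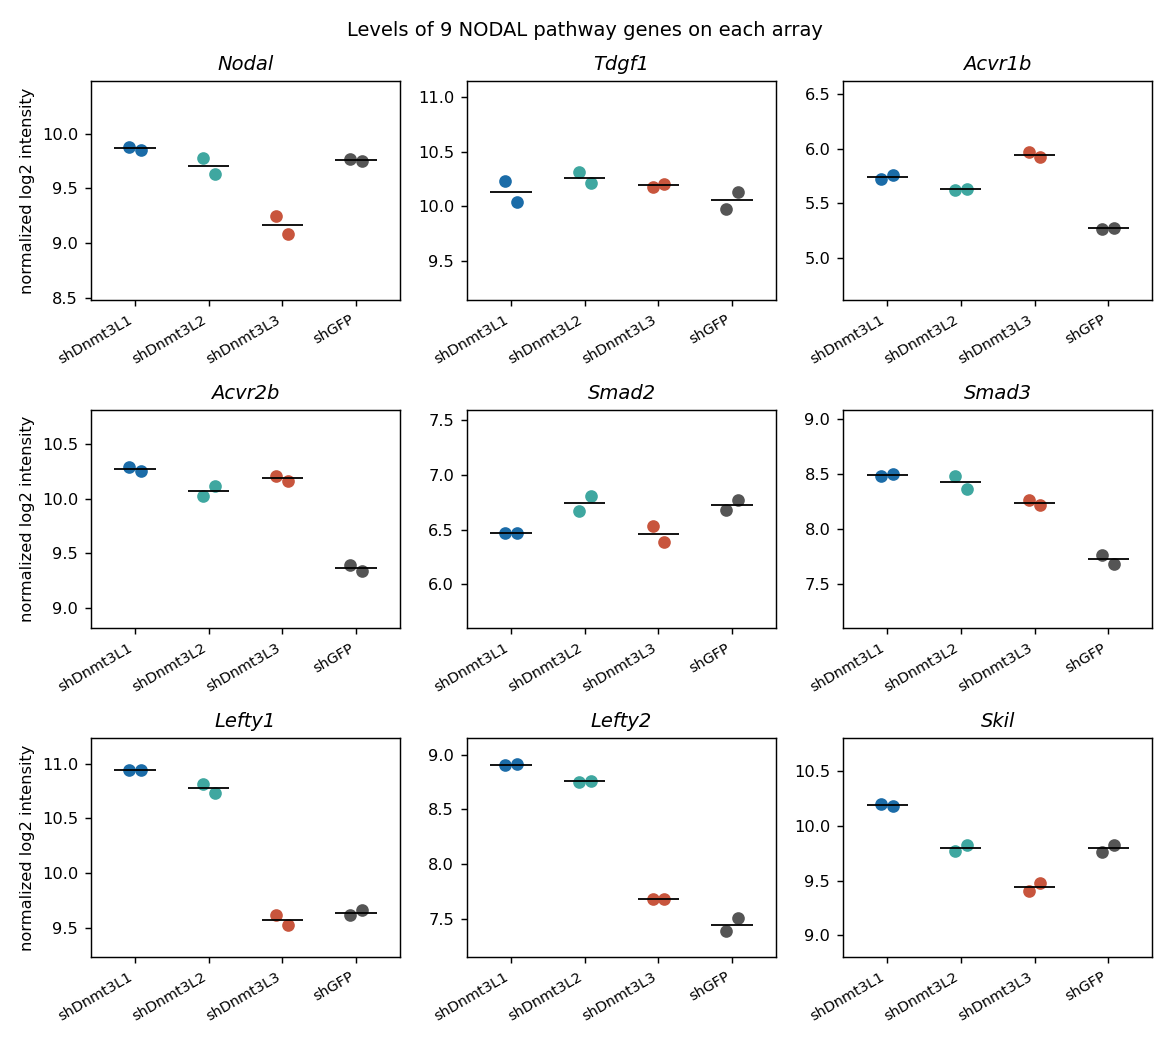
Normalized log2 intensity (y axis) of 9 pathway genes on each of the 8 arrays, by hairpin (x axis); points are arrays, lines are group means, and each panel spans 2 log2 units. Acvr1b, Acvr2b and Smad3 sit higher with every Dnmt3l hairpin than with shGFP, Lefty1 and Lefty2 are highest with shDnmt3L1 and shDnmt3L2, and Nodal is lowest with shDnmt3L3.

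Nodal, the ligand, had 9.88 and 9.85 with shDnmt3L1, 9.78 and 9.63 with shDnmt3L2, 9.25 and 9.08 with shDnmt3L3, and 9.77 and 9.75 with shGFP, as normalized log2 intensities. Both shDnmt3L3 arrays were below the other 6 arrays. The log2 difference from shGFP was 0.10 ± 0.09 (SE; adjusted p = 0.365) with shDnmt3L1, -0.05 ± 0.09 (adjusted p = 0.657) with shDnmt3L2 and -0.59 ± 0.09 (adjusted p = 0.00063) with shDnmt3L3, where the level was 66.3% of that with shGFP. The 95% interval of the shDnmt3L1 difference was -0.10 to 0.31 and that of the shDnmt3L2 difference -0.26 to 0.15. Set directly against the other hairpins, shDnmt3L3 was lower by a log2 difference of -0.70 than shDnmt3L1 (adjusted p = 0.000532) and by -0.54 than shDnmt3L2 (adjusted p = 0.00157). In order of level, shDnmt3L1, shGFP and shDnmt3L2 were neighbours that did not differ by the test, and shDnmt3L3 came last. A second, dimmer Nodal probe was also lowest with shDnmt3L3, with 7.18 and 7.36 in shDnmt3L3 against 8.13 and 7.92 in shGFP and a log2 difference of -0.76 (adjusted p = 0.000478 in a fit over all probes). That second probe differed from shGFP by 0.07 with shDnmt3L1 and by 0.06 with shDnmt3L2, and neither passed the test.

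Tdgf1, the co-receptor that NODAL needs, is abundant in embryonic stem cells and was the steadiest of the 9 genes. It had 10.23 and 10.04 with shDnmt3L1, 10.31 and 10.21 with shDnmt3L2, 10.18 and 10.21 with shDnmt3L3, and 9.98 and 10.13 with shGFP. The shDnmt3L1 arrays overlapped with shGFP, and 5 of the 6 Dnmt3l hairpin arrays were above both shGFP arrays. The differences were 0.08 (adjusted p = 0.510; 95% interval -0.14 to 0.30), 0.21 (adjusted p = 0.118; -0.01 to 0.43) and 0.14 (adjusted p = 0.257; -0.08 to 0.36) with shDnmt3L1, shDnmt3L2 and shDnmt3L3. The shDnmt3L2 difference passed the threshold under 3 of 18 other settings, among them log2 intensities without background correction (0.19, adjusted p = 0.0183). The group means of Tdgf1 spanned 0.21 log2 units, and 11.7% of all genes had a smaller span.

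Acvr2b, the type II receptor that binds the ligand, rose with every hairpin. It had 10.29 and 10.25 with shDnmt3L1, 10.02 and 10.11 with shDnmt3L2, 10.21 and 10.17 with shDnmt3L3, and 9.39 and 9.34 with shGFP. The lowest Dnmt3l hairpin array was well above the highest shGFP array. The log2 differences were 0.91 ± 0.08 (SE; adjusted p = 4.23e-05), 0.70 ± 0.08 (adjusted p = 0.000266) and 0.82 ± 0.08 (adjusted p = 4.54e-05) with shDnmt3L1, shDnmt3L2 and shDnmt3L3, which put Acvr2b at 188%, 163% and 177% of its control level. Among the 3 Dnmt3l hairpins the Acvr2b means did not differ by the F test (adjusted p = 0.119), although they did under 2 of 18 other settings, for example an intensity trend with a robust prior (adjusted p = 0.0324). Acvr2b did not differ by the test between shDnmt3L3 and shDnmt3L1 (log2 difference -0.09, adjusted p = 0.420).

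Acvr1b, the type I receptor that phosphorylates SMAD2 and SMAD3, was dim, with raw intensities between 109.8 and 142.8, but was detected on all 8 arrays. Its normalized log2 values were 5.72 and 5.76 with shDnmt3L1, 5.62 and 5.63 with shDnmt3L2, 5.96 and 5.93 with shDnmt3L3, and 5.27 and 5.27 with shGFP. The 4 groups did not overlap, and shDnmt3L3 was the highest. The log2 differences from shGFP were 0.46 (adjusted p = 0.000914), 0.35 (adjusted p = 0.00489) and 0.67 (adjusted p = 9.96e-05) with shDnmt3L1, shDnmt3L2 and shDnmt3L3, each ± 0.07 (SE). Since the probe is near background, these sizes depend on the background step: without it they were 0.17, 0.13 and 0.26, and the shDnmt3L2 difference no longer passed (adjusted p = 0.0632). Another 2 probes annotated to Acvr1b were detected on 0 of 8 arrays, so 1 probe carries this result. The Acvr1b means differed among the 3 Dnmt3l hairpins (F test, adjusted p = 0.0161), a call that was lost under 4 of 18 other settings, among them leaving out either shDnmt3L3 array (adjusted p = 0.0846 and 0.057).

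Smad3, a transducer of the receptors, was higher with all 3 hairpins. Smad3 had 8.48 and 8.50 with shDnmt3L1, 8.49 and 8.36 with shDnmt3L2, 8.26 and 8.21 with shDnmt3L3, and 7.76 and 7.68 with shGFP. All 6 Dnmt3l hairpin arrays were above both shGFP arrays, and the shDnmt3L3 arrays were the lowest of the 6. The log2 differences were 0.77 (adjusted p = 0.000124), 0.70 (adjusted p = 0.000359) and 0.52 (adjusted p = 0.000767), each ± 0.08 (SE), in the order shDnmt3L1, shDnmt3L2 and shDnmt3L3, or 171%, 163% and 143% of the control level. The difference among the 3 hairpins did not pass the F test (adjusted p = 0.0624) and passed it under 6 of 18 other settings.

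A second Smad3 probe gave smaller differences. It had 6.71 and 6.86 with shDnmt3L1, 6.90 and 7.08 with shDnmt3L2, 6.70 and 6.80 with shDnmt3L3, and 6.70 and 6.48 with shGFP. In the fit over all probes, where 41.5%, 32.8% and 45.5% of probes were called with shDnmt3L1, shDnmt3L2 and shDnmt3L3, its log2 differences were 0.19 (adjusted p = 0.195), 0.40 (adjusted p = 0.0243) and 0.16 (adjusted p = 0.277). The sign was shared by both Smad3 probes in all 3 comparisons and the call by both in 1. With the 2 probes averaged, the Smad3 differences were 0.48 with shDnmt3L1 and 0.34 with shDnmt3L3, and both still passed (adjusted p = 0.00141 and 0.00649).

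The averages of several marker lists of other lineages also lay above shGFP with some hairpins. Each average includes genes below detection, so a single detected gene can move it, and it does not show a rise of the whole list. The trophectoderm list, of which Cdx2, Elf5 and Hand1 were detected on none of the arrays, averaged 4.80 to 4.82 with shDnmt3L1, 4.69 to 4.84 with shDnmt3L2, 4.83 to 4.91 with shDnmt3L3 and 4.55 to 4.59 with shGFP. The fibroblast list, with 2 of 6 genes detected on all arrays and the collagen genes on none, averaged 5.39 to 5.41 with shDnmt3L1, 5.13 to 5.19 with shDnmt3L2, 5.41 to 5.52 with shDnmt3L3 and 5.13 to 5.16 with shGFP. The endoderm list averaged 4.89 to 4.96 with shDnmt3L1, 4.87 to 4.94 with shDnmt3L2, 4.89 to 4.90 with shDnmt3L3 and 4.73 to 4.85 with shGFP. Of the detected genes on these lists, Krt7, a keratin, rose by 1.28, 0.94 and 1.66, and Thy1, a surface protein of fibroblasts and other cells, rose by 1.20, 0.35 and 1.36 with shDnmt3L1, shDnmt3L2 and shDnmt3L3. Twist1, the other gene of the fibroblast list detected on all arrays, differed by 0.07, -0.14 and 0.01 in the same order. With each hairpin, 1 of the 3 tested genes of that list was called. The part of other cell types in the rises of Acvr1b, Acvr2b and Smad3 was not tested.

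Smad2, the other transducer, had 6.47 and 6.47 with shDnmt3L1, 6.67 and 6.81 with shDnmt3L2, 6.54 and 6.39 with shDnmt3L3, and 6.68 and 6.77 with shGFP. The shDnmt3L1 and shDnmt3L3 arrays were below both shGFP arrays, and the shDnmt3L2 arrays lay around them. The log2 differences of -0.25 with shDnmt3L1 (adjusted p = 0.0428) and -0.26 with shDnmt3L3 (adjusted p = 0.0344) passed the threshold narrowly, and that of 0.02 with shDnmt3L2 did not (adjusted p = 0.902; 95% interval -0.19 to 0.22). The call was lost under 7 of 18 other settings for shDnmt3L1 and under 5 of 18 for shDnmt3L3: with arrays scaled to their medians the differences were -0.06 and -0.14, and leaving out 1 shGFP array gave adjusted p between 0.0538 and 0.178.

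**Figure D2:**
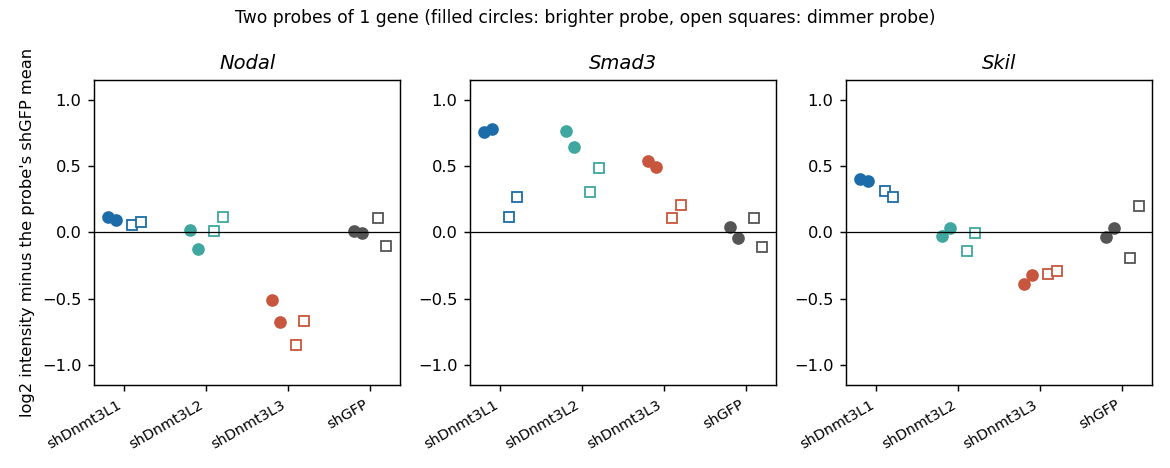
Log2 intensity minus the probe's own shGFP mean (y axis) on each array, by hairpin (x axis), for the 3 genes with 2 detected probes: filled circles are the brighter probe and open squares the dimmer one. Both Nodal probes are low with shDnmt3L3, both Skil probes are high with shDnmt3L1 and low with shDnmt3L3, and the dimmer Smad3 probe shows a smaller rise than the brighter one.

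Lefty1 encodes a secreted inhibitor that is itself induced by NODAL signalling. It had 10.94 and 10.94 with shDnmt3L1, 10.82 and 10.73 with shDnmt3L2, 9.62 and 9.53 with shDnmt3L3, and 9.62 and 9.66 with shGFP. The 4 arrays of shDnmt3L1 and shDnmt3L2 stood more than 1 log2 unit above the other 4, and the shDnmt3L3 arrays overlapped with shGFP. The log2 difference from shGFP was 1.30 ± 0.08 (SE; adjusted p = 1.10e-05) with shDnmt3L1, or 247% of the shGFP level, and 1.13 ± 0.08 (adjusted p = 4.57e-05) with shDnmt3L2, or 219%. With shDnmt3L3 it was -0.07 (adjusted p = 0.488), with a 95% interval of -0.24 to 0.11 that excludes the sizes seen with the other hairpins. The direct differences were -1.37 for shDnmt3L3 minus shDnmt3L1 (adjusted p = 1.04e-05) and -1.20 for shDnmt3L3 minus shDnmt3L2 (adjusted p = 1.66e-05).

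Lefty2, the other LEFTY inhibitor, followed the same order, with a small rise left in shDnmt3L3. It had 8.90 and 8.92 with shDnmt3L1, 8.75 and 8.76 with shDnmt3L2, 7.68 and 7.68 with shDnmt3L3, and 7.39 and 7.51 with shGFP. The 4 groups did not overlap. The log2 differences were 1.46 (adjusted p = 6.59e-06), 1.31 (adjusted p = 3.12e-05) and 0.23 (adjusted p = 0.0285), each ± 0.08 (SE), in the order shDnmt3L1, shDnmt3L2 and shDnmt3L3, or 275%, 248% and 118% of the control level. The shDnmt3L3 call was lost under 4 of 18 other settings, among them leaving out the first shGFP array (0.18, adjusted p = 0.154) and either shDnmt3L3 array (adjusted p = 0.0901 and 0.0884). Lefty2 was lower with shDnmt3L3 by -1.23 than with shDnmt3L1 (adjusted p = 1.53e-05) and by -1.07 than with shDnmt3L2 (adjusted p = 2.30e-05). Lefty1 and Lefty2 are paralogs on chromosome 1, with 3 annotated genes between them in GRCm38.p6, 1 of which is protein-coding. Without the probe sequences, which were not used here, how far a LEFTY probe reads both transcripts was not tested.

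An endoderm marker was also higher with the hairpins that had high LEFTY signal. Dab2, an endocytic adaptor, rose by 1.64 with shDnmt3L1 (adjusted p = 3.31e-05) and by 1.20 with shDnmt3L2 (adjusted p = 0.000263) and differed by 0.07 with shDnmt3L3 (adjusted p = 0.665). The other endoderm markers detected on all 8 arrays did not share this order: Sox7 fell by 0.38 and 0.27 with shDnmt3L1 and shDnmt3L2, and Amn rose by 0.85 with shDnmt3L3 alone. The neuroectoderm list, with Sox1, Pax6 and Zic1 detected on none of the arrays, averaged 4.96 to 4.98 with shDnmt3L1, 4.98 to 5.05 with shDnmt3L2, 4.74 to 4.84 with shDnmt3L3 and 4.88 to 4.91 with shGFP. The part of other cell types in the Lefty1 and Lefty2 differences was not tested.

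Skil, whose protein represses SMAD targets and which is induced by the pathway, differed between each pair of Dnmt3l hairpins at its brighter probe. It had 10.20 and 10.19 with shDnmt3L1, 9.77 and 9.83 with shDnmt3L2, 9.41 and 9.48 with shDnmt3L3, and 9.77 and 9.83 with shGFP. The shDnmt3L1 arrays were above and the shDnmt3L3 arrays below all others, and those of shDnmt3L2 lay within the range of shGFP. Skil was 1.31-fold higher with shDnmt3L1 (log2 difference 0.39, adjusted p = 0.00281) and 1.28-fold lower with shDnmt3L3 (-0.35, adjusted p = 0.004), and with shDnmt3L2 it was at 99.98% of the shGFP level (adjusted p = 0.998). It was the only one of the 9 genes called between shDnmt3L1 and shDnmt3L2 (0.39, adjusted p = 0.0186), a comparison in which 8.05% of all genes were called and 4.78% were called higher. That call of Skil was lost under 4 of 18 other settings. A dimmer Skil probe had log2 differences from shGFP of 0.29, -0.07 and -0.30 with shDnmt3L1, shDnmt3L2 and shDnmt3L3, of which none passed in the fit over probes (adjusted p = 0.0975, 0.682 and 0.0769), and another Skil probe was not detected. In the same fit the dimmer probe passed in shDnmt3L3 minus shDnmt3L1 (-0.59, adjusted p = 0.00812). It did not pass in shDnmt3L1 minus shDnmt3L2 (0.36, adjusted p = 0.128) or shDnmt3L3 minus shDnmt3L2 (-0.23, adjusted p = 0.191).

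Smad7, which encodes an inhibitor of the receptors, was read by 1 probe with raw intensities between 82.6 and 94.3 and detection p between 0.536 and 0.999. It was detected on 0 of 8 arrays and so has no level here.

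**Figure D3:**
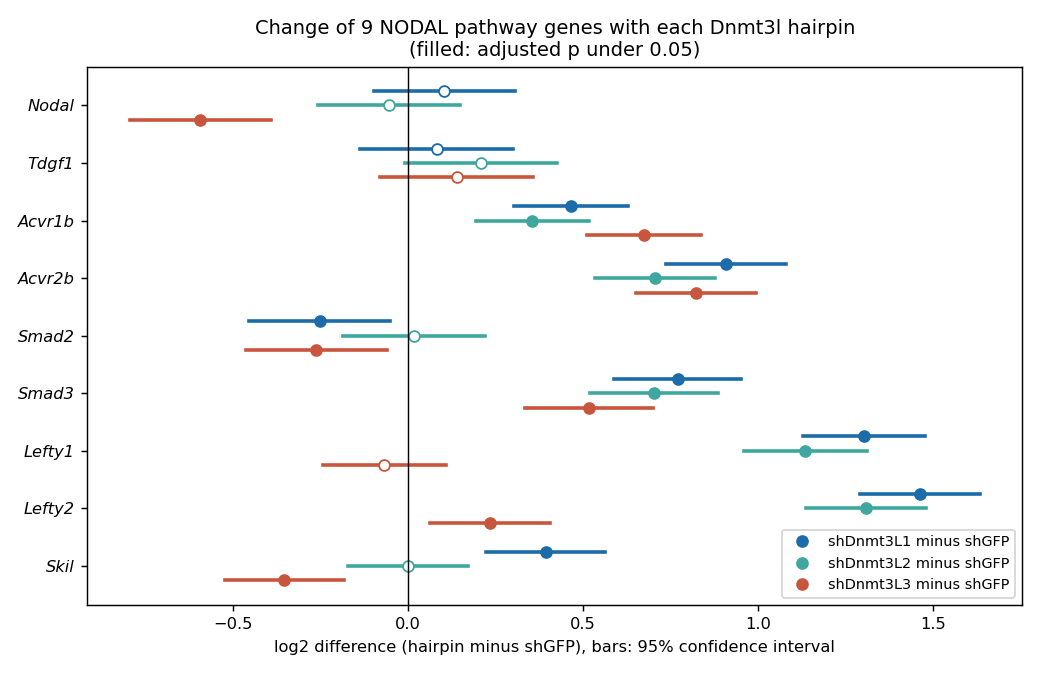
Log2 difference from shGFP (x axis) of 9 pathway genes with each Dnmt3l hairpin; points are estimates over 2 arrays per group, bars are 95% confidence intervals, and filled points have an adjusted p under 0.05. The intervals of Acvr1b, Acvr2b and Smad3 lie above 0 for every hairpin, those of Lefty1 and Lefty2 with shDnmt3L3 lie far below those of the other 2 hairpins, and Nodal has 1 filled point, at -0.59 with shDnmt3L3.

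The 3 hairpins against Dnmt3l were also compared with each other. By the F test, 6 of the 9 genes differed among them (Nodal, Acvr1b, Smad2, Lefty1, Lefty2 and Skil), where 44.8% of all genes did, and leaving out 1 array gave 4 to 5. The F test call of Smad2 was lost under 10 of 18 other settings. In shDnmt3L3 minus shDnmt3L1, 6 were called, 1 higher (Acvr1b) and 5 lower (Nodal, Smad3, Lefty1, Lefty2 and Skil), where 35.3% of all genes were called (17.7% higher and 17.6% lower). In shDnmt3L3 minus shDnmt3L2, 6 were called, 1 higher (Acvr1b) and 5 lower (Nodal, Smad2, Lefty1, Lefty2 and Skil), where 42.2% of all genes were (21.8% higher and 20.4% lower). The Acvr1b rise over shDnmt3L1 (0.21, adjusted p = 0.0498) was lost under 15 of 18 other settings and the Smad3 fall below shDnmt3L1 (-0.25, adjusted p = 0.0369) under 5. These comparisons share the shDnmt3L3 arrays. Over the mean of the 3 hairpins minus shGFP, 5 of 9 genes were called, all higher (Acvr1b, Acvr2b, Smad3, Lefty1 and Lefty2), where 52.2% of all genes were called and 27.5% were called higher. In that comparison Nodal did not pass (-0.18, adjusted p = 0.0629). It was called lower under 10 of 21 other settings and turned its sign under 1. With the hairpin group as a random block, Acvr2b alone was called (adjusted p = 0.0216).

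The group means of Lefty2 spanned 1.46 log2 units and those of Lefty1 spanned 1.37, more than in 97.6% and 96.8% of all genes, whose median span was 0.46. Acvr2b spanned 0.91, Smad3 0.77, Skil 0.75, Nodal 0.70 and Acvr1b 0.67, each more than in at least 74.3% of all genes. Smad2 spanned 0.28, more than in 21.8% of genes.

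Other genes of the pathway were taken from lists by role. Of 12 activin and TGF-beta receptor genes on the array 8 were tested, Acvr1b and Acvr2b among them, and 7 rose with shDnmt3L1, 6 with shDnmt3L2 and 5 with shDnmt3L3, with none called lower. Over all genes tested, 25.2% rose and 22.6% fell with shDnmt3L1, 20.8% rose and 18.3% fell with shDnmt3L2, and 27.1% rose and 25.1% fell with shDnmt3L3. These shares are the background of each list count that follows. The median log2 differences of the 8 tested receptor genes were 0.48, 0.39 and 0.35. Beside the members, Eng, an accessory receptor, differed by 0.83, 0.65 and 0.45, Bmpr2, a BMP type II receptor, by 0.49, 0.60 and 0.42, and Acvr1, a type I receptor, by 0.58, 0.35 and 0.28, and all of these passed. Tgfbr1, the TGF-beta type I receptor, rose by 0.43 with shDnmt3L1 and by 0.43 with shDnmt3L2, and it was at 0.00 with shDnmt3L3 (adjusted p = 0.985).

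The convertases that cleave the NODAL precursor rose with every hairpin. Furin rose by 1.49, 1.11 and 1.50 with shDnmt3L1, shDnmt3L2 and shDnmt3L3, and Pcsk6 rose by 1.13, 1.26 and 0.89. In single arrays Furin had 9.02 and 9.01 with shDnmt3L1, 8.62 and 8.67 with shDnmt3L2, 9.05 and 9.02 with shDnmt3L3, and 7.51 and 7.55 with shGFP, so no hairpin overlapped with shGFP. Gdf1, a related ligand that pairs with NODAL, rose by 0.77, 0.62 and 0.79. Gdf3, a further ligand of the family, differed between hairpins: it was at 0.00 with shDnmt3L1 (adjusted p = 0.987), rose by 0.39 with shDnmt3L2 and fell by 0.57 with shDnmt3L3. Fst, which encodes the activin antagonist follistatin, fell by 0.49 with shDnmt3L1, where 1 of 2 arrays detected it, and with shDnmt3L3 it was below detection, at least 1.42-fold lower (adjusted p = 0.00041). Tgfb1, a TGF-beta ligand, was not detected with shDnmt3L1 or shDnmt3L2, at least 1.69-fold and 1.66-fold lower, and fell by 0.37 with shDnmt3L3. Over the whole list of co-receptors, processing enzymes and ligands, 9 genes were tested, and 3 rose and 2 fell with shDnmt3L1, 4 rose and 1 fell with shDnmt3L2, and 3 rose and 4 fell with shDnmt3L3.

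Of the SMAD genes, 5 were tested, and beside Smad2 and Smad3 they include the BMP transducers Smad1, which rose by 0.40, 0.41 and 0.44, and Smad5, which rose by 0.62, 0.58 and 0.49 with shDnmt3L1, shDnmt3L2 and shDnmt3L3. Smad6, an inhibitory SMAD, was not detected with shDnmt3L2 or shGFP and was at least 1.09-fold higher with shDnmt3L3 (adjusted p = 0.0319). Among 14 tested SMAD partners and cofactors, 6 rose and 2 fell with shDnmt3L1, 2 rose and 0 fell with shDnmt3L2, and 2 rose and 6 fell with shDnmt3L3. Ski, the relative of Skil, rose by 0.65, 0.53 and 0.47, unlike Skil. Crebbp, a histone acetyltransferase that SMADs recruit, and Ehmt1, a histone methyltransferase, fell by 0.80 and 0.62 with shDnmt3L3, where 1 of 2 arrays detected each, and did not pass with the other hairpins. Zfp423, a BMP-linked SMAD partner, fell by 0.69 with shDnmt3L1, and the corepressor Ctbp2 fell by 0.58 with shDnmt3L1 and by 0.51 with shDnmt3L3. In shDnmt3L2 the partners' counts were below the shares of all genes. Of 16 tested ubiquitin ligases, deubiquitinases, phosphatases and adaptors of SMADs and receptors, 2, 4 and 4 rose and 2 fell with each of shDnmt3L1, shDnmt3L2 and shDnmt3L3, which is near or below the shares of all genes. Smurf1, a ligase for SMADs and receptors, rose by 0.91, 0.83 and 0.70, and the deubiquitinase Usp11 rose by 0.94, 0.69 and 0.93.

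Of 14 tested target genes of NODAL and activin, 5 of them members, 7 rose and 2 fell with shDnmt3L1, 8 rose and 3 fell with shDnmt3L2, and 2 rose and 9 fell with shDnmt3L3. Of all genes, 25.2%, 20.8% and 27.1% rose and 22.6%, 18.3% and 25.1% fell with shDnmt3L1, shDnmt3L2 and shDnmt3L3. The list is small and was chosen with earlier results of these data known, and whether it differs from other genes was not tested. The medians of their log2 differences were 0.34, 0.33 and -0.42, or 0.27, 0.20 and -0.37 with undetected genes at their bounds, beside 0.0086, 0.0047 and 0.0021 over all genes. In shDnmt3L3 minus shDnmt3L1, 1 of the 14 was higher and 10 were lower (17.7% and 17.6% of all genes), and in shDnmt3L3 minus shDnmt3L2, 0 were higher and 10 lower (21.8% and 20.4% of all genes).

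Among these targets Otx2, a transcription factor of the epiblast and forebrain, had 11.45 and 11.26 with shDnmt3L1, 10.99 and 10.98 with shDnmt3L2, 9.19 and 9.05 with shDnmt3L3, and 10.41 and 10.46 with shGFP. It rose by 0.92 and 0.55 with shDnmt3L1 and shDnmt3L2 (adjusted p = 9.92e-05 and 0.00203) and fell by 1.32 with shDnmt3L3 (adjusted p = 1.18e-05). Fgf8, a growth factor of the gastrulating embryo, rose by 1.14 and 1.10 with shDnmt3L1 and shDnmt3L2 and fell by 0.69 with shDnmt3L3, where 1 of 2 arrays detected it. Fgf5, a marker of the primed epiblast, was below detection with shDnmt3L3, at least 2.20-fold lower, and rose by 0.30 with shDnmt3L2. Eomes, a T-box factor of mesendoderm that 1 of 2 shGFP arrays detected, rose by 0.71 and 0.35 with shDnmt3L1 and shDnmt3L2 and was below detection with shDnmt3L3, at least 1.02-fold lower. Id3, a BMP and SMAD target that inhibits basic helix-loop-helix factors, fell by 0.91, fell by 1.18 and fell by 1.56 with shDnmt3L1, shDnmt3L2 and shDnmt3L3 (detected on 1 of 2 shDnmt3L3 arrays), and Id1 fell by 0.54, fell by 0.48 and fell by 0.84. The ES cell marker list averaged 10.48 to 10.49 with shDnmt3L1, 10.65 to 10.68 with shDnmt3L2, 10.61 to 10.62 with shDnmt3L3 and 10.50 to 10.56 with shGFP on single arrays, and the mesoderm list, which was near background, averaged 4.80 to 4.91, 4.75 to 4.87, 4.52 to 4.56 and 4.70 to 4.82. Single ES cell markers moved both ways: of 10, 1 rose and 2 fell with shDnmt3L1. With shDnmt3L2, 2 rose and 1 fell, and with shDnmt3L3, 2 rose and 2 fell. Their log2 differences from shGFP lay between -0.48 and 0.44, -0.32 and 0.49, and -0.45 and 1.09 with shDnmt3L1, shDnmt3L2 and shDnmt3L3. The part of a change in cell composition in the target genes was not tested.

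**Figure D4:**
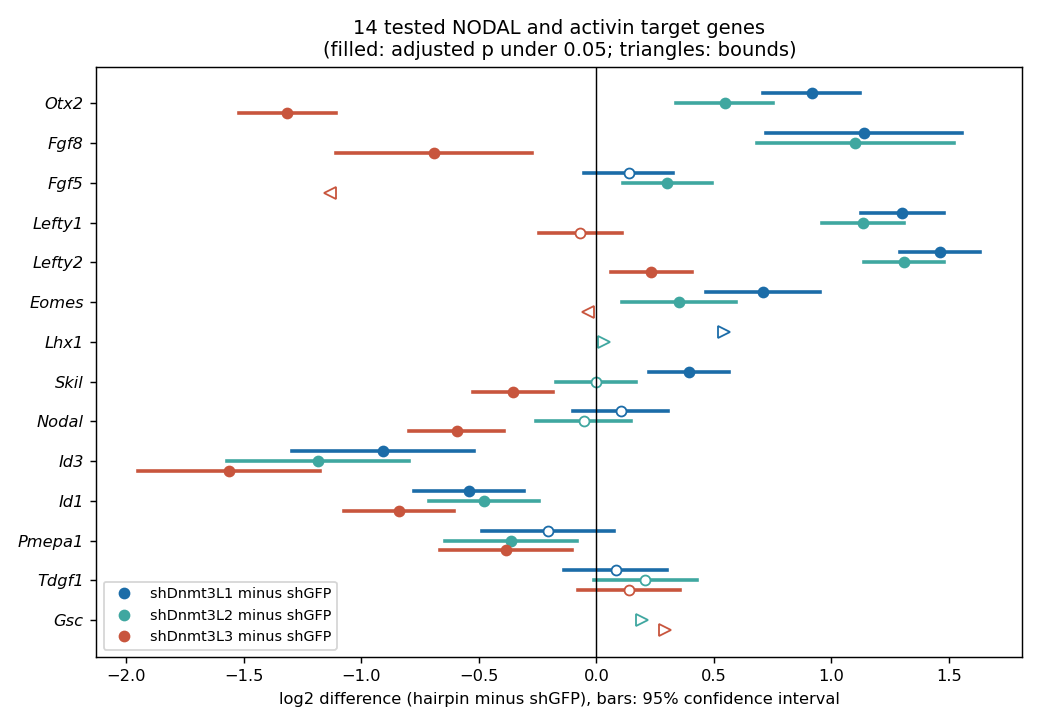
Log2 difference from shGFP (x axis) of 14 tested NODAL and activin target genes with each Dnmt3l hairpin; bars are 95% confidence intervals, filled points have an adjusted p under 0.05, triangles are bounds where 1 of the groups was not detected on either array, and comparisons with no usable bound are left blank. Otx2, Fgf8 and Fgf5 lie to the left of 0 with shDnmt3L3, and Otx2, Fgf8, Lefty1 and Lefty2 to the right with shDnmt3L1 and shDnmt3L2.

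Of 8 tested BMP and ID genes of the neighbouring BMP branch, Id1 and Id3 among them, 2 rose and 4 fell with each hairpin, so that the rises are near the share of all genes. Bmp4, a ligand of that branch, fell by 1.46 with shDnmt3L1 and by 1.18 with shDnmt3L2 and did not pass with shDnmt3L3 (-0.19, adjusted p = 0.172). Bmp7 rose by 1.12, 1.01 and 1.65 with shDnmt3L1, shDnmt3L2 and shDnmt3L3. Id2 rose by 0.61 and 0.40 with shDnmt3L1 and shDnmt3L2, and Id4 was below detection with shDnmt3L3, at least 1.28-fold lower.

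Genes whose pattern over the 8 arrays was most like that of a member were listed by Pearson correlation among genes whose group means spanned at least 1 log2 unit, 989 or 990 candidates. The arrays fall into groups, so these values only describe likeness. Closest to Nodal were Lrp2, Porcn, Anxa3, Nsd1 and Slc12a2, with r between 0.971 and 0.975, all lowest with shDnmt3L3. Lrp2, an endocytic receptor, had group means of 8.03, 7.64 and 6.54 with shDnmt3L1, shDnmt3L2 and shDnmt3L3, and 7.73 with shGFP. Porcn, the acyltransferase of WNT proteins, had 8.27, 8.09 and 7.09, and 8.11 with shGFP. Closest to Lefty1 were Lhpp, Gm4971, Gli3, Cdc42ep5 and Gadd45g, with r between 0.991 and 0.996. Gli3, a transcription factor of the hedgehog pathway, had 7.56, 7.46 and 6.39 with shDnmt3L1, shDnmt3L2 and shDnmt3L3, and 6.49 with shGFP. Closest to Lefty2 were Tcstv3, Nsmaf, Gadd45g, AF067061 and Tnfrsf22, with r between 0.993 and 0.994. Gadd45g, a stress-induced gene, stood in both lists, at 8.84, 8.76 and 7.42 with shDnmt3L1, shDnmt3L2 and shDnmt3L3, and 7.25 with shGFP.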

How the data were processed

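RNA of 8 arrays in 4 hairpin groups was analysed. The authors' deposited non-normalized table gives an intensity per probe and array on a linear scale, made with GenomeStudio 2011.1 per the submitters' processing notes, and beside each intensity a deposited p-value, read as its detection p-value. The authors' deposited processed intensity values, made by steps that the sources used here do not give, were used as an alternative only.

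Background correction with an offset of 16, quantile normalization and log2 of the authors' intensities used the neqc function of limma 3.58.1 in R 4.3.3. Detected means a detection p under 0.05. Probes detected on at least 2 arrays were kept, each gene was represented by its brightest probe, and 10930 genes entered 1 model with 4 group means (4 residual and 4.64 prior degrees of freedom). Tests were two-sided, with Benjamini-Hochberg adjustment over all genes. For a gene below detection on both arrays of a group only a bound is printed ("at least"): the other group's mean is set against the lowest detected signal of each array, or against the gene's own signal where that is higher. The number of arrays limits the precision. The script was tested on simulated data.

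The members and lists were chosen with earlier results of these data known. Named were all members, Dnmt3l, up to 6 called genes per list with the largest differences, and the 5 genes most like Nodal, Lefty1 and Lefty2. The marker genes Krt7, Thy1, Twist1, Dab2, Sox7 and Amn and the target gene Gsc were named after their values were seen. From the lists, Usp15, Usp4, Stap2 and Nedd4l met this rule and had log2 differences from shGFP between -0.53 and 0.43. Inhbb, Smad4, Drap1, Ncor1, Smurf2 and T were not analysed here. Alternatives changed the background step, normalization, filter, probe rule, prior, arrays and blocks.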

Additional observations from a re-analysis of the deposited data

Results flagged for a closer look

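For 6 of the 9 tested genes the response differed between the hairpins against Dnmt3l, by limma's F test across those 3 groups. Of all genes tested, 44.8% differed by that test. The adjusted p was 1.19e-05 for Lefty1 and 1.99e-05 for Lefty2, which were high with shDnmt3L1 and shDnmt3L2 and not, or little, raised with shDnmt3L3. It was 0.000323 for Skil, which was high with shDnmt3L1 and low with shDnmt3L3, and 0.000852 for Nodal, which was low with shDnmt3L3. It was 0.0161 for Acvr1b, which was highest with shDnmt3L3, and 0.0455 for Smad2, which was lower with shDnmt3L1 and shDnmt3L3 than with shDnmt3L2. Smad2 lost this call under 10 of 18 other settings and Acvr1b under 4 of 18.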

How the results depend on the processing

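Of 1323 values of the member genes recomputed under 22 alternatives, 1217 kept their direction and their side of the threshold, 63 lost the call, 28 gained it and 15 turned their sign. With the hairpin group as a random block (consensus correlation 0.691), the mean of the 3 hairpins minus shGFP called 323 genes and 1 member in place of 5707 and 5. For shDnmt3L1 minus shDnmt3L2, where 880 genes and 1 member were called, no background correction called 1832 genes and 2 members, an offset of 50 called 1664 genes, an intensity trend with a robust prior 1710 genes and 2 members, and the 4 arrays alone 572 genes, while leaving out 1 array gave 187 to 770 genes and 0 to 1 members. The replicate numbers did not pair the samples (correlations of same-numbered deviations between -0.0105 and 0.0373), and a replicate block kept 6, 5 and 7 members called with shDnmt3L1, shDnmt3L2 and shDnmt3L3, losing Smad2 with shDnmt3L1 (-0.25, adjusted p = 0.0579) and in the F test (adjusted p = 0.0647). Median scaling raised the share of higher calls among all genes to 66.2%, 66.4% and 58.1% with shDnmt3L1, shDnmt3L2 and shDnmt3L3, from 52.7%, 53.2% and 51.9%. The signs that turned belonged to differences that were not called: averaging probes gave 0.00506 for Nodal with shDnmt3L2, -0.00875 for Skil in the mean of the hairpins and -0.0678 for Smad3 in shDnmt3L1 minus shDnmt3L2, and median scaling gave 0.0461 for Skil with shDnmt3L2. Without the shDnmt3L3 arrays the mean difference of Nodal was 0.0238, and without the shDnmt3L1 arrays that of Skil was -0.176. Leaving out 1 array gave Tdgf1 -0.0178 to 0.182 with shDnmt3L1 and -0.0424 to 0.155 in shDnmt3L3 minus shDnmt3L1, Nodal -0.127 to 0.0192 with shDnmt3L2, Smad2 -0.0528 to 0.0863 with shDnmt3L2 (-0.0305 without the first shGFP array) and -0.0841 to 0.0652 in shDnmt3L3 minus shDnmt3L1, and Skil -0.0315 to 0.0314 with shDnmt3L2 (0.0303 without its first array) and -0.0187 to 0.0429 in the mean. The causes were not tested. Dim probes such as that of Acvr1b have little signal over background.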
